A study of Rattus norvegicus with 6 samples.

Results

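Acinar cells, the enzyme-secreting cells of the exocrine pancreas, were described here in single-cell RNA sequencing counts of the pancreas of 6 male Wistar rats. The cells were chosen by measured values: a barcode was taken as an acinar cell when at least 20% of its unique molecular identifiers (UMIs, each standing for 1 captured mRNA molecule) came from 7 transcripts of digestive secretion, namely Prss1, Prss2, Ctrb1, Cela1, Cela3b, Clps and Pnlip, when it held no UMI of the leukocyte gene Ptprc, and when the islet hormones Gcg, Ins1, Ins2, Ppy and Pyy made up less than 5% of its UMIs. Only barcodes with at least 200 genes, at least 1000 UMIs and at most 25% of UMIs from the mitochondrial genome were considered. This rule took 1826 of 67491 barcodes, or 2.71%.

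The young group was sampled at 2 months of age on a normal diet. The old group had been kept on the normal diet from 2 to 20 months of age, and the HFHF-old group had received a high-fat high-fructose (HFHF) diet over the same 18 months. Each group had 2 rats, each with a library of its own, so that the old and young groups differ in age and in time on the diet, the HFHF-old and old groups in diet, and the HFHF-old and young groups in both. All 6 pancreata were treated as an islet preparation, with collagenase P injected into the bile duct and a density gradient that collects islets, so the acinar cells are those that remained beside the islets after this step. Values of the 6 rats are given in the order young 1, young 2, old 1, old 2, HFHF-old 1 and HFHF-old 2 throughout.

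Acinar cells synthesize the enzymes that digest protein, fat and starch in the gut. They store them in zymogen granules, most of the proteases as inactive precursors, and release them when cholecystokinin or acetylcholine raises cytosolic calcium. The identity of the cell rests on a small group of transcription factors, among them Ptf1a with its partner Rbpjl, Nr5a2 and Bhlha15, and on a large rough endoplasmic reticulum. Most of the mRNA of such a cell encodes a few secreted proteins.

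The number of acinar cells per rat was 293, 360, 428, 227, 472 and 46, which made up 1.79, 3.91, 6.12, 1.84, 4.24 and 0.402% of the kept barcodes. The old and HFHF-old groups each held 1 rat with over 4% and 1 rat with less than 2%, and the values of all 3 groups overlapped. The exact 95% binomial intervals, which cover counting error only, ran from 3.87 to 4.63% in HFHF-old 1 and from 0.295 to 0.536% in HFHF-old 2. The share was 3.98 ± 3.03% (SD, n = 2) in old rats, 2.85 ± 1.5% in young rats and 2.32 ± 2.71% in HFHF-old rats. Two-sided exact permutation tests, which cannot go below p = 0.33 with 2 rats against 2, gave p = 0.667 between HFHF-old and old rats, p = 0.667 between old and young rats and p = 1 between HFHF-old and young rats. As shares of the kept barcodes without a Ptprc UMI, HFHF-old rats stood above young rats (9.14 against 6.96%), which turns the direction of that last difference. HFHF-old rats stood above old rats at an enzyme share of at least 40% (by 0.39 percentage points), without old 1 (0.479) and without HFHF-old 2 (0.255), and above young rats at a share of at least 40% (0.93), without young 2 (0.53) and without HFHF-old 2 (1.38). Old rats stood below young rats without old 1 (-1.01).

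The acinar cells together held 1179960, 2869159, 2269328, 1295341, 6754619 and 205170 UMIs per rat, and a cell held a median of 2517, 4026, 3766, 3334, 8346 and 3470.5 UMIs. The median number of genes detected in a cell was 348, 410.5, 431, 345, 662 and 284. HFHF-old 1 held the most acinar UMIs in all and per cell, and HFHF-old 2 the fewest in all, while young 1 had the lowest median per cell. In HFHF-old 2 a single UMI was worth 4.87 CPM (counts in each 1000000 acinar UMIs of a rat), and 3 UMIs, the number that a count of 0 still allows, were worth 14.6 CPM, against 0.444 CPM in HFHF-old 1. The whole libraries held 77387928 to 166875258 UMIs. Of all barcodes, libraries shared 20 to 69 with each other, and of acinar barcodes 0.

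The limits of the rule set apart different numbers of barcodes in each rat. Acinar cells with 20 to 25% of their UMIs from the 7 transcripts numbered 12, 16, 11, 10, 15 and 10, and barcodes with 15 to 20% that met the other criteria numbered 7, 21, 2, 11, 13 and 1. Enzyme-rich barcodes left out for a Ptprc UMI numbered 45, 93, 129, 25, 198 and 9, between 8.83 and 29.5% of the enzyme-rich barcodes of a rat, and those left out for hormone transcripts 1, 76, 152, 35, 2 and 0. With amylase counted among the enzymes, a further 7, 20, 3, 12, 4 and 3 barcodes would have reached 20%.

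**Figure D1:**
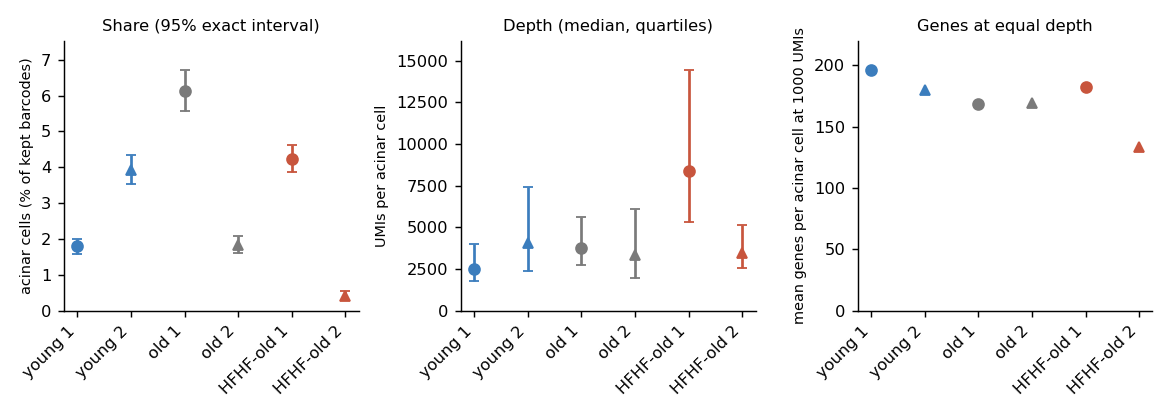
Acinar cells as a percentage of kept barcodes with exact 95% binomial intervals (left), UMIs per acinar cell as median and quartiles (middle) and mean number of genes per acinar cell after thinning to 1000 UMIs (right), 1 point per rat. The share runs from 0.402% in HFHF-old 2 to 6.12% in old 1, the median depth is highest in HFHF-old 1 at 8346 UMIs, and at equal depth both old rats (168 and 169 genes) lie below both young rats (180.0 and 196).

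The cells carried the markers of their name. The 6 markers Prss1, Prss2, Ctrb1, Cela3b, Pnlip and Clps, all but 1 of the 7 transcripts of the rule, were detected in every rat, which the rule itself brings about. Among transcripts the rule did not use, Ptf1a, the factor that defines the acinar lineage, stood at 32.2, 30.3, 34.4, 34, 28.1 and 34.1 CPM in acinar cells against 0.03 to 3.19 CPM in barcodes with a Ptprc UMI and under 10% of enzyme UMIs (Ptprc-positive barcodes, 4366 to 10451 per rat). The list of 20 acinar transcription factors that holds Ptf1a went the other way as a whole. It summed to 132 to 349 CPM in acinar cells and 314.5 to 771 CPM in Ptprc-positive barcodes, lower in acinar cells in every rat. Of the marker lists of other cells, 1 member each had 0 UMIs in all acinar cells among 10 of ducts (Krt19), 8 of alpha cells (Irx2), 9 of beta cells (Adcyap1), 6 of PP and delta cells (Npy), 5 of B and plasma cells (Ms4a1) and 10 of endothelial and mural cells (Rgs5). The other members, and all markers of T and NK cells, macrophages and neutrophils, and fibroblasts, had a UMI in at least 1 rat, and 6 of 13 T and NK cell markers had one in every rat.

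Transcripts of islet cells were present at low levels and differed between rats. The summed level of the 9 beta cell markers in the files was 1608, 3809, 4572, 2206, 2882 and 14.6 CPM in acinar cells, against 121 to 116120 CPM in Ptprc-positive barcodes. The 8 alpha cell markers summed to 793, 1979.7, 1133, 456, 126 and 97.5 CPM, against 12.3 to 30059 CPM in Ptprc-positive barcodes. The 6 PP and delta cell markers summed to 231, 1537, 422, 271, 135 and 0 CPM. Markers of fibroblasts summed to 34.1 to 1182 CPM, of macrophages and neutrophils to 9.75 to 530.0 CPM, of T and NK cells to 34.2 to 199.8 CPM, of B and plasma cells to 0 to 4.85 CPM, of endothelial and mural cells to 0 to 43.9 CPM and of ducts to 34.1 to 66.4 CPM. The beta cell markers were lowest in HFHF-old 2, the alpha cell markers in both HFHF-old rats, and the fibroblast markers were highest in HFHF-old 1. The hormones Gcg, Ins1, Ins2, Ppy and Pyy among these markers were used by the rule, which caps their level in acinar cells, and are given without a test. Of the other tested members 0 were called.

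The 7 transcripts of the rule together made up a median of 37.7, 36.5, 38.3, 35.2, 52.2 and 28.7% of the UMIs of a cell. HFHF-old 1 stood highest and HFHF-old 2 lowest, and cells with at least 40% numbered 102, 106, 173, 47, 404 and 1. When amylase was added to them, the 8 transcripts held 52.2, 49.8, 52.3, 53.2, 53.7 and 58.3% of acinar UMIs. HFHF-old 2, with the lowest share of the 7, had the highest share of amylase, and HFHF-old 1, with the highest share of the 7, the lowest. These shares and the levels of the 7 transcripts below come from the values that chose the cells and are given without a test.

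Among the proteases of the rule, the trypsinogen transcript Prss1, whose product becomes trypsin and activates the other proteases, stood at 10.2, 13.2, 10.9, 12, 17.9 and 5.3% of UMIs. Prss2, a second trypsinogen, stood at 0.469, 0.602, 0.285, 0.458, 0.851 and 0.0716%, highest in HFHF-old 1 and lowest in HFHF-old 2 as for Prss1. The chymotrypsinogen transcript Ctrb1 stood at 9.82, 10.1, 8.84, 4.52, 15.9 and 5.94%, with HFHF-old 1 highest and old 2 lowest. For Prss1, Prss2 and Ctrb1 no group was set apart from both others. The elastase transcript Cela3b stood at 2.55, 2.34, 2.24, 2.94, 7.88 and 2.78% with HFHF-old 1 far above the other 5 rats. Cela1, a second elastase, went the other way, with 2.12, 2.64, 1.73, 1.69, 0.977 and 1.67%. Both young rats stood above both old rats, and these above both HFHF-old rats, of which HFHF-old 2 lay close to the old rats.

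Among the genes of fat digestion in the rule, colipase (Clps), the cofactor that anchors pancreatic lipase to lipid droplets, stood at 9.87, 7.89, 9.11, 8.61, 3.05 and 9.43%, with HFHF-old 1 far below the other 5 rats. Pancreatic lipase itself (Pnlip) stood at 2.97, 2.36, 6.14, 4.95, 3.82 and 4.64%. Both old rats lay above both HFHF-old rats, and these above both young rats, so that, among the transcripts of the rule, the 3 groups did not overlap in these summed levels for Pnlip and Cela1. They did overlap in the median share per cell, which was 2.96, 2.24, 6.07, 3.89, 4.12 and 4.22% for Pnlip and 1.99, 2.43, 1.71, 1.59, 1.03 and 1.64% for Cela1. The share of all tested genes that set the 3 groups apart in summed levels was not counted. The genes of the trypsinogen family are close copies of each other, and 3′ counting may have split or shared reads between Prss1, Prss2, Prss3, Prss3b and Try5, so their single levels are uncertain.

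Amylase, the starch-digesting enzyme, was not used by the rule. Of the enzymes above 1% of UMIs in every rat it had the widest range, its highest rat standing 8.43-fold above its lowest. It is listed in the files under the identifier LOC103689940, which RefSeq gives the synonyms Amy2 and Amy2-3. Its level was 14.2, 10.7, 13, 18, 3.38 and 28.5% of UMIs. The 2 extremes were both HFHF-old rats, while the young rats and old rats lay between them. The HFHF-old against old comparison therefore rests on a pair of rats that lay on either side of the old rats, and amylase was called in none of the 3 comparisons.

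**Figure D2:**
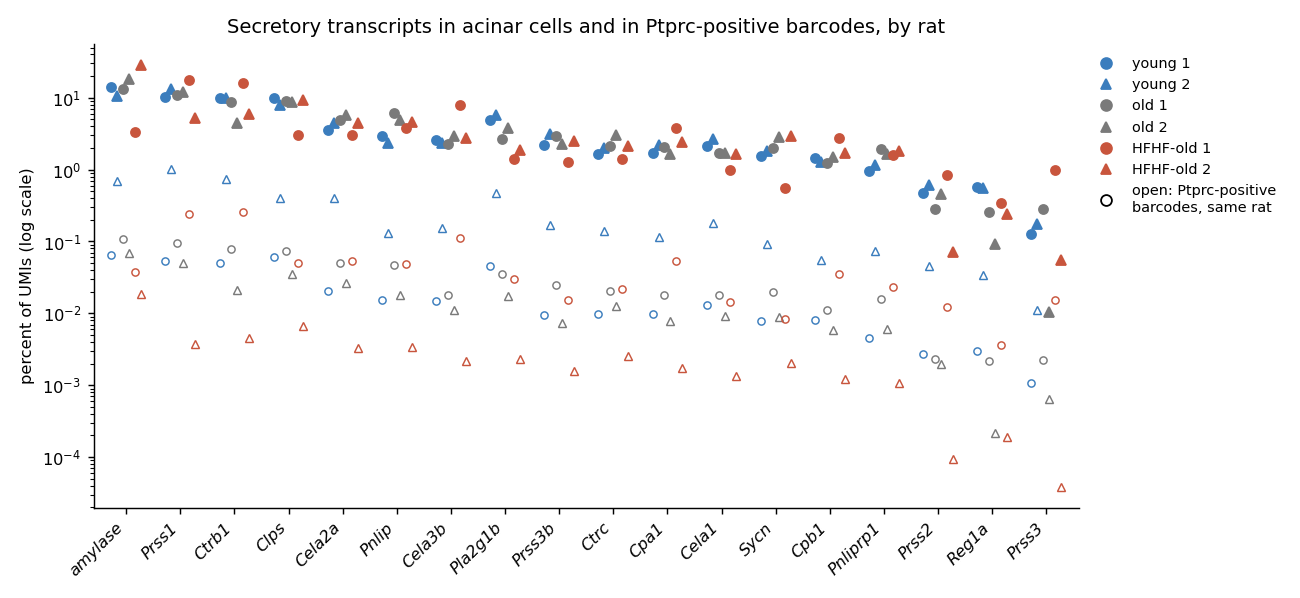
Level of 18 secretory transcripts per rat as a percentage of UMIs on a log scale, in acinar cells (filled) and in Ptprc-positive barcodes of the same rat (open). In acinar cells HFHF-old 1 is lowest for amylase (3.38%) and highest for Prss1 (17.9%), HFHF-old 2 is the reverse (28.5 and 5.30%), and in each rat the open symbols keep the order of amylase and Prss1 at lower levels.

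The promoters of the proteases of the rule and of amylase are shown because these genes share known acinar regulators while their levels diverged between rats. The 250 bases before the start of each gene were taken from RefSeq (GRCr8), which held 20 of 29 genes looked up, with no entry for Clps. Capitals mark CACCTG, which reads CAGGTG on the opposite strand, an E-box form known for binding basic helix-loop-helix factors such as Ptf1a, and TTTCCC, which reads GGGAAA on the opposite strand, a form of the box that Rbpjl and its relative Rbpj are known to bind. The motifs can share at most 1 base, both strands were searched, and a match is a description of letters, not a bound site. All 5 proteases of the rule held both motifs, which 3.233% of the 33469 RefSeq promoters do. Among the other genes looked up, Cel held both as well, Ctrl, Prss3b and Cpb1 held the first motif alone, and Pla2g1b, Reg1a and Pnlip, the last a gene of the rule, the second alone. Amylase, Ctrc, Cpa1, Gp2, Pnliprp1, Pnliprp2, Fam25a and Cblif held neither. CACCTG was in 15.9% and TTTCCC in 21.97% of these promoters, and of the 20 genes 9 held the first, 9 the second and 6 both.

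The 5 proteases are followed by amylase, each 5′ to 3′ on the strand of the gene.
Prss1 (chr4:71330999-71331248, + strand): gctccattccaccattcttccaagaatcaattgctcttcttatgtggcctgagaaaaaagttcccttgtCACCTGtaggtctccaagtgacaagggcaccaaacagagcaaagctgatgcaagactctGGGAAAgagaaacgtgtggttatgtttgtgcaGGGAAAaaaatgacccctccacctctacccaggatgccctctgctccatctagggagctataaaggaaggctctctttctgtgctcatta
Prss2 (chr4:71244714-71244963, + strand): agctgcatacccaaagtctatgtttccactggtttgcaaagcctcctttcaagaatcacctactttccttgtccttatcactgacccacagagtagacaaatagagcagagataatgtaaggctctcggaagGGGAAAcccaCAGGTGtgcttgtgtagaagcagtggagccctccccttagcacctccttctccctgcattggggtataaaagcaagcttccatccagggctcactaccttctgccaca
Ctrb1 (chr19:56566979-56567228, - strand): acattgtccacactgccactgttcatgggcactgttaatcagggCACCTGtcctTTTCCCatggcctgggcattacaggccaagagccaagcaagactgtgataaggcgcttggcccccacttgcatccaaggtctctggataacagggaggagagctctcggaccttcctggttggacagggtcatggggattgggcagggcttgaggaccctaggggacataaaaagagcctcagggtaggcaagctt
Cela1 (chr7:133665062-133665311, - strand): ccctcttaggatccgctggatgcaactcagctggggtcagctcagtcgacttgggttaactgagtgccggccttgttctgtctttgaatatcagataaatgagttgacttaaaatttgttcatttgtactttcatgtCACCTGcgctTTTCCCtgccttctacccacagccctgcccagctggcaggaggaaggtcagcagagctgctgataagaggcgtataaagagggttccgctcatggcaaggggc
Cela3b (chr5:154920334-154920583, - strand): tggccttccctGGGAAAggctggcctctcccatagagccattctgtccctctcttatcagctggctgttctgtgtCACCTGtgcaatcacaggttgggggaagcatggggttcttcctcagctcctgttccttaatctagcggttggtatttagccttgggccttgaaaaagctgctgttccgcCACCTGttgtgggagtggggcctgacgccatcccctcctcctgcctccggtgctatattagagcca
Amylase (LOC103689940) (chr2:204041924-204042173, - strand): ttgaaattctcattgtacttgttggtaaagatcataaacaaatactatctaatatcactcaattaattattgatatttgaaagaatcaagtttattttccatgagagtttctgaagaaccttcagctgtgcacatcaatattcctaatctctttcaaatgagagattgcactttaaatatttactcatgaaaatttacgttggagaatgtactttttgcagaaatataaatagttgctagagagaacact

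Prss1 held 1 copy of CACCTG and 2 of TTTCCC, Cela3b 2 and 1, and Prss2, Ctrb1 and Cela1 1 of each. Among these genes, which all held both motifs, Prss1, Prss2, Ctrb1 and Cela3b were highest in HFHF-old 1 while Cela1 was lowest there. All of them are transcripts that chose the cells, so this is a description.

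Enzyme transcripts were also found in barcodes with a Ptprc UMI, and there most kept the proportions of the acinar cells of the same rat. In Ptprc-positive barcodes Prss1 stood at 37.1 to 10053 CPM, highest in young 2 and lowest in HFHF-old 2. The ratio of amylase to Prss1 UMIs was 1.39, 0.81, 1.2, 1.5, 0.189 and 5.38 in acinar cells and 1.22, 0.692, 1.13, 1.4, 0.157 and 5.03 in Ptprc-positive barcodes. The order of the rats was the same in both, with HFHF-old 1 lowest and HFHF-old 2 highest. Of 19 secretory transcripts taken relative to Prss1, between 16 and 18 per rat had ratios in both kinds of barcodes that agreed within 1.5-fold. Of all UMIs of the 7 transcripts in a library, 31.9 to 60.8% lay in acinar cells, the rest in other barcodes.

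For the enzyme genes outside the rule, the 2 HFHF-old rats lay further apart than the 2 rats of either other group. Of 22 enzyme and granule genes outside the rule with at least 100 CPM on average after TMM scaling, 11 (50%) differed by over 2-fold between HFHF-old 1 and HFHF-old 2, against 23.4% of the 239 genes of such a level. Between the young rats 1 of the 22 (4.55%) differed by as much, beside 11.3% of the 239 genes, and between the old rats 2 of the 22 (9.09%), beside 15.9%. This is a description of 3 pairs of rats, without a test.

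Within each rat the acinar cells differed among themselves. The median share of amylase per cell was 13.6, 10.5, 11.7, 13.2, 3.47 and 27%, with 5th percentiles of 5.3, 5.11, 3.32, 4.06, 0.841 and 7.44% and 95th percentiles of 25.4, 25.1, 26.1, 31.4, 7.67 and 40.2%. The median share of Prss1 was 10.1, 11.8, 9.73, 11.6, 18.1 and 4.72%. A cell of the middle of HFHF-old 1 thus held more Prss1 and less amylase than a cell of the middle of any other rat, and the middle cell of HFHF-old 2 the opposite.

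Cells in which amylase made up at least 10% of UMIs numbered 216, 202, 256, 140, 2 and 42, or 73.7, 56.1, 59.8, 61.7, 0.424 and 91.3%. Amylase UMIs outnumbered Prss1 UMIs in 207, 157, 245, 127, 4 and 45 cells, or 70.6, 43.6, 57.2, 55.9, 0.847 and 97.8%. The exact 95% interval of the latter was 0.231 to 2.16% in HFHF-old 1 and 88.5 to 99.9% in HFHF-old 2. The 2 HFHF-old rats thus differed in nearly all of their cells.

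Shares of 2 enzymes were also compared across the cells of each rat by Spearman's rho, as a description over 46 to 472 cells that share a library and whose shares of UMIs constrain each other. Prss1 and Ctrb1 had rho of 0.54, 0.32, 0.41, -0.06, 0.31 and 0.52, positive in all rats but old 2. Amylase and colipase had rho of -0.34, -0.33, -0.50, 0.12, 0.03 and -0.51, negative in both young rats, old 1 and HFHF-old 2. Amylase and Pnlip had rho of 0.51, 0.50, -0.0013, -0.58, 0.42 and 0.15, which ran from the positive values of the young rats to a negative value in old 2.

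**Figure D3:**
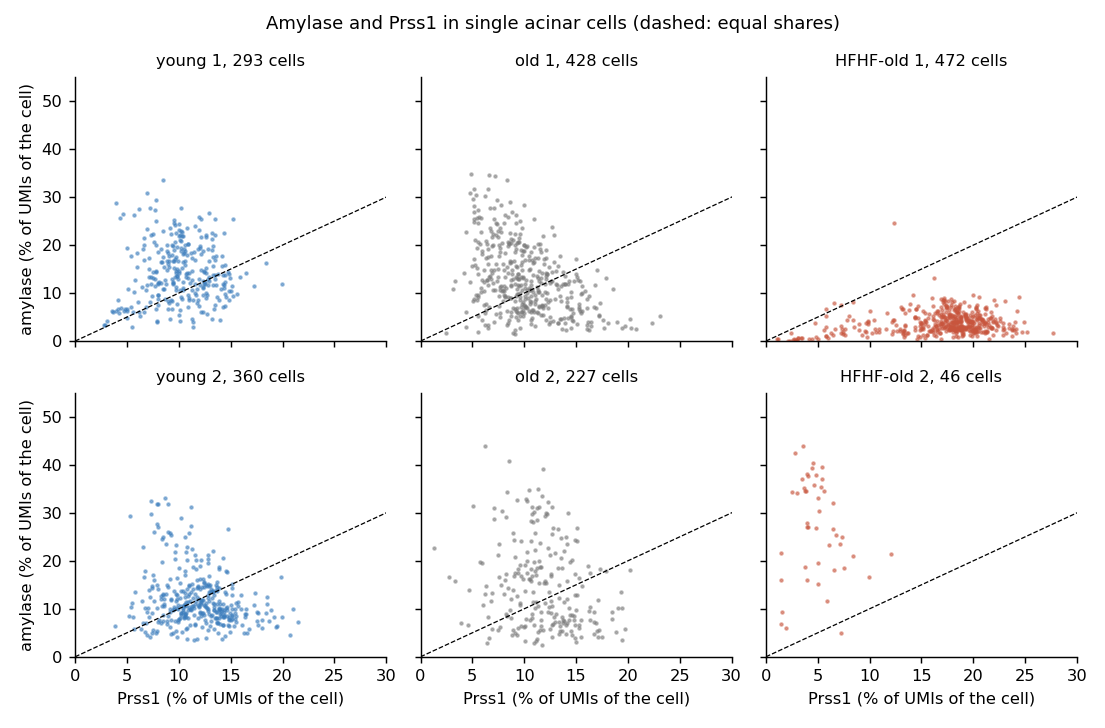
Share of amylase against share of Prss1 in each acinar cell (percent of the UMIs of the cell), 1 panel per rat, with a dashed line where both are equal. Of the cells of HFHF-old 1, 0.847% lie above the line, and of those of HFHF-old 2 97.8%, while the other 4 rats have cells on both sides (43.6 to 70.6% above).

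Of the 21 other digestive enzymes listed, 17 were in the files and 14 were tested, and 0 passed in any comparison, beside 0% of all 4620 tested genes called when the diets were compared, 0.0649% when old and young rats were and 0.0649% for HFHF-old against young rats. Their median log2 fold changes were -0.04, 0.31 and 0.33 in that order of comparisons, beside -0.02, 0.03 and -0.01 over all genes tested. Scaled by library size alone they were 0.05, -0.02 and 0.06, beside 0.27, -0.33 and -0.07. Of the other lists below with a median above 0 for old against young, only acinar transcription factors and the dissociation response stayed above 0 under that scaling. A gene counted as called, here and below, when its p, adjusted by Benjamini-Hochberg across the tested genes, was under 0.05 and its fold change over 1.5 in edgeR's quasi-likelihood test of UMIs summed per rat.

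Phospholipase A2 (Pla2g1b), which cleaves phospholipids of the diet, stood at 4.93, 5.68, 2.66, 3.81, 1.4 and 1.88%. Both young rats were highest and both HFHF-old rats lowest, without overlap between the 3 groups. Of all tested genes, 33.4% stood lower in both old than in both young rats. The shares lower in both HFHF-old rats were 23.7% against young and 8.72% against old rats, and the share apart in all 3 groups was not counted. The difference between HFHF-old and young rats was a log2 fold change of -1.40 ± 0.689 SE, edgeR adjusted p = 0.954, which did not pass. Pnliprp1, a lipase-related protein, stood at 0.945, 1.16, 1.97, 1.67, 1.6 and 1.81%, with both young rats below the other 4. That difference was also not called for old against young (log2 fold change 1.13 ± 0.618 SE, edgeR adjusted p = 0.999).

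Carboxypeptidases remove the last residue of a peptide. Of these, Cpa1 stood at 1.7, 2.22, 2.07, 1.64, 3.78 and 2.46% and Cpb1 at 1.45, 1.26, 1.25, 1.48, 2.76 and 1.72%, each highest in HFHF-old 1. In the order of the rats, the elastase Cela2a had 3.57, 4.41, 4.89, 5.84, 3 and 4.38% and the chymotrypsins Ctrc 1.65, 1.98, 2.13, 3.03, 1.4 and 2.16% and Ctrl 1.25, 1.46, 1.32, 1.36, 0.476 and 1.35%, all 3 lowest in HFHF-old 1. The trypsinogen Prss3b had 2.17, 3.11, 2.94, 2.29, 1.27 and 2.53%, while Prss3 ran from 104 CPM in old 2 to 0.977% of UMIs in HFHF-old 1.

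Other lipolytic enzymes varied little. The bile salt-dependent lipase Cel ranged from 0.877 to 1.29% and Pnliprp2, which cleaves galactolipids, from 0.326 to 0.406%. Try5, a further trypsin gene, had 33, 514, 150, 0, 1233 and 0 UMIs, with none in old 2 and HFHF-old 2. The second amylase gene Amy1a, at 50.8, 60.3, 41, 42.5, 10.5 and 68.2 CPM, was lowest in HFHF-old 1 and highest in HFHF-old 2 like LOC103689940, and Dpep1, a membrane dipeptidase, was highest in HFHF-old 1 at 61.1 CPM.

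Of 23 genes of zymogen granules and enzyme inhibitors, 20 were in the files and 16 were tested, and 0 passed. Their median log2 fold changes were -0.37, 0.30 and -0.08. Syncollin (Sycn), a granule membrane protein, stood at 1.55, 1.82, 1.99, 2.88, 0.558 and 2.94%, lowest in HFHF-old 1. The granule lectin Zg16 stood at 1.15, 1.22, 1.14, 1.39, 0.714 and 1.22%, again with HFHF-old 1 lowest, and the granule glycoprotein Gp2 ranged from 0.369 to 0.664%. Spink1 and Spink1l, which inhibit trypsin within the gland and resemble each other so closely that reads may have been split between them, ranged from 0.136 to 0.207% and 0.119 to 0.207%.

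Cuzd1, a granule membrane protein, stood at 664, 802, 485, 303, 1868 and 643 CPM, with both HFHF-old rats above both old rats (log2 fold change 1.44 ± 0.517 SE, edgeR adjusted p = 0.871). Clusterin (Clu), a secreted chaperone, stood at 1055, 175, 271, 1126, 331 and 190.1 CPM and was high in young 1 and old 2 and low in their partners. The inhibitor Serpini2 ranged from 443 to 815 CPM and the water channels Aqp12a and Aqp8 from 187 to 397 CPM and 14.6 to 60.6 CPM. The remaining tested members, Tmed11, Muc1 and the fusion and trafficking genes Rab3d, Rab26, Vamp8 and Vamp2, stood between 3.09 and 164 CPM.

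Of 20 acinar transcription factors, 12 were tested and 0 passed, with median log2 fold changes of 0.32, 0.37 and 0.43. In HFHF-old 2 none of the list reached 10 UMIs. The summed level of the list was lowest in that rat (132 CPM against 178 to 349 CPM in the others). Ptf1a had the narrowest range of the tested factors, its highest and lowest rat differing by 1.22-fold. In HFHF-old 2 only 6 of 46 cells held a Ptf1a UMI, so a range this narrow lies within counting error. Rbpjl, which forms a complex with it, stood at 17.8, 30.7, 14.1, 23.2, 96.8 and 4.87 CPM with HFHF-old 1 highest and HFHF-old 2 resting on 1 UMI. Bhlha15, which organizes the granules and the secretory pathway, stood at 29.7, 31.7, 18.5, 18.5, 15.8 and 9.75 CPM, with both young rats highest and both HFHF-old rats lowest (log2 fold change -1.06 ± 0.495 SE, edgeR adjusted p = 0.948 for HFHF-old against young). Nr5a2 stood at 17.8, 15.3, 12.8, 12.4, 26.5 and 4.87 CPM and Xbp1, which expands the endoplasmic reticulum, at 37.3, 36.2, 42.3, 47.9, 55.4 and 29.2 CPM.

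Creb3l1, a membrane-bound factor of the secretory pathway, stood at 17.8, 12.2, 7.05, 3.86, 20.7 and 14.6 CPM, with both HFHF-old rats above both old rats. Tcf12, a partner of Ptf1a, stood at 11, 12.5, 21.2, 10, 43.2 and 4.87 CPM in acinar cells and at 206 to 680.3 CPM in Ptprc-positive barcodes. The other tested factors, Gata4, Foxa2, Foxa3, Hnf4a and Spdef, were at or below 11.1 CPM in all rats. Among the 8 factors too low to be tested were Pdx1, Gata6 and Nupr1.

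Of 20 genes of the response to secretagogues, 19 were in the files and 12 were tested, again with 0 passing and median log2 fold changes of 0.52, 0.14 and 0.55. In HFHF-old 2 only 1 gene of the list reached 10 UMIs. The summed level of the list was lowest in that rat (122 CPM against 149 to 218 CPM in the others). The cholecystokinin receptor Cckar stood at 9.32, 6.62, 7.05, 7.72, 15.5 and 9.75 CPM, highest in HFHF-old 1. The secretin receptor Sctr stood at 26.3, 28.2, 15, 13.9, 16.4 and 0 CPM, with both young rats above the other 4, and Slc12a2, the transporter that loads the cell with chloride, at 28.8, 24, 9.69, 8.49, 21 and 9.75 CPM, also highest in the young rats. The potassium channel subunit Kcne1 ranged from 36.9 to 79.1 CPM. The calcium signalling genes Itpr2, a calcium release channel (0 to 8.88 CPM), and Orai1, a calcium entry channel (0 to 15.3 CPM), stood higher in Ptprc-positive barcodes than in acinar cells in every rat.

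Among Reg proteins, lectins that acinar cells secrete in larger amounts in pancreatitis, Reg1a stood at 5694, 5474, 2538, 926, 3400.5 and 2437 CPM. Both young rats were highest, and old 2 was lowest (log2 fold change -1.37 ± 0.562 SE, edgeR adjusted p = 0.999 for old against young, which did not pass). Reg3a stood at 277, 105, 219.9, 40.9, 399 and 166 CPM and Reg3b at 424, 47.1, 146, 56.4, 514 and 312 CPM, where both HFHF-old rats were above both old rats for Reg3b, which was not called, while young 1 and young 2 differed by 9.01-fold. The trefoil peptide Tff2, which protects mucosa, stood at 3116, 4389, 1593, 2943, 1864 and 2257 CPM. Of the 17 genes of this list 10 were tested and 0 passed, with median log2 fold changes of 0.81, -0.17 and 0.85.

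At equal depth, acinar cells held fewer genes than the Ptprc-positive barcodes. The choice of cells favours this, since acinar cells needed a high share of UMIs from 7 transcripts and Ptprc-positive barcodes a low one. The difference between the 2 kinds of barcodes is therefore given as a description. After thinning to 1000 UMIs, a cell had on average 196, 180.0, 168, 169, 183 and 133 genes, against 553 to 679.9 in Ptprc-positive barcodes. Both old rats lay below both young rats (two-sided exact permutation p = 0.33, the smallest that 2 rats against 2 allow), HFHF-old 1 lay between the young rats and HFHF-old 2 was lowest. With the 7 transcripts left out and 500 UMIs kept per cell, the means were 158, 144, 139, 133, 172 and 102 genes. HFHF-old 1 was then highest, and both old rats stayed below both young rats. No such count was made for Ptprc-positive barcodes, so a difference from them outside the 7 transcripts was not tested. The 10 most abundant genes of a rat held 62.4 to 68.9% of its acinar UMIs. Before thinning, the cells had 465, 613, 494, 449, 1034 and 316 genes, with HFHF-old 1, which had the most UMIs per cell, highest.

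Transcripts of the mitochondrial genome made up a median of 0.728, 0.328, 0.407, 0.155, 0.773 and 0.0744% of the UMIs of an acinar cell, against 1.80 to 2.71% in Ptprc-positive barcodes. The 2 HFHF-old rats were the highest and the lowest. All 13 genes of this genome were tested and 0 passed, with median log2 fold changes of 0.60, -0.07 and 0.34.

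The HFHF-old and old groups were compared to ask what the diet adds at the same age. Of 4620 genes tested, edgeR called 0 (0%), 203 genes (4.39%) had an unadjusted p under 0.05, and DESeq2 called 2, RT1-Bb and the hormone gene Gcg, both lower, where a call on Gcg draws on a gene that chose the cells. In 12.7% of the tested genes both HFHF-old rats stood above both old rats, and in 8.72% below. The residual degrees of freedom were 3 for all comparisons, and scaling by library size alone, which moved the median log2 fold change of all genes to 0.27, -0.33 and -0.07 in the 3 comparisons, left 0 calls in each. So did edgeR's newer quasi-likelihood method and thinning every cell to 1000 UMIs. Other settings gave calls in HFHF-old against old, among them 33 with the replicate number as a block. Testing every gene with at least 1 count gave 41, and leaving out doublets 3. In HFHF-old against old, leaving out 1 rat gave 25 calls without young 1, 12 without young 2, 33 without old 1, 36 without old 2, 2 without HFHF-old 1 and 5 without HFHF-old 2.

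Among the genes with the smallest p that were higher in both HFHF-old rats, none of them called, stood Ern1, the sensor of unfolded proteins known as IRE1, at 5.08, 9.76, 3.97, 2.32, 27.4 and 4.87 CPM (log2 fold change 2.40 ± 0.666 SE, edgeR adjusted p = 0.484). Clasp2, a microtubule-binding protein, stood at 11.9, 9.06, 3.08, 2.32, 22.5 and 4.87 CPM (log2 fold change 2.40 ± 0.63 SE, edgeR adjusted p = 0.384). In both genes HFHF-old 1 was highest and HFHF-old 2 rested on 1 UMI, and both stood higher in Ptprc-positive barcodes than in acinar cells in every rat, as did RGD1562420, Kcnq5, Fam3c and Eprs of the 10 genes. This order, given here and below, was not counted over all tested genes and sets no gene apart by itself. Apart from cell markers, every gene list but those of enzymes, granules and Reg genes summed higher in Ptprc-positive barcodes in every rat. Cyp7b1, an oxysterol hydroxylase, stood at 9.32, 11.2, 18.5, 7.72, 57.4 and 24.4 CPM against 1.61 to 14 CPM in Ptprc-positive barcodes (log2 fold change 1.51 ± 0.515 SE, edgeR adjusted p = 0.858). Tuba4a, an alpha tubulin, stood at 38.1, 32.1, 17.6, 13.1, 46.5 and 53.6 CPM (log2 fold change 1.48 ± 0.49 SE, edgeR adjusted p = 0.837). Anpep, the aminopeptidase N of the cell membrane, and the ETS factor Etv5 complete the 10, with log2 fold changes of 1.59 and 2.06 (those of RGD1562420, Kcnq5, Fam3c and Eprs were 2.02, 1.98, 1.91 and 1.35) and adjusted p between 0.702 and 0.871.

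Lower in both HFHF-old rats was RT1-Bb, a class II histocompatibility chain of antigen-presenting cells (log2 fold change -6.71 ± 1.15 SE, edgeR adjusted p = 0.0674). Gcg, the glucagon gene of alpha cells, stood lower as well, but its values are a description. The hormone limit of the rule met 152 and 35 enzyme-rich barcodes of the old rats and 2 and 0 of the HFHF-old rats, some of which also held a Ptprc UMI. RT1-Bb and Gcg, with AABR07060872.1 (edgeR adjusted p = 0.0907) and AABR07065625.1 (edgeR adjusted p = 0.0927), stood higher in Ptprc-positive barcodes than in acinar cells of the old rats. The part of other cells' transcripts in these acinar levels was not tested. In contrast, Gif, Folr1, Apoc4, Fam25a and Tdh, a threonine dehydrogenase, stood lower in Ptprc-positive barcodes than in acinar cells of both old rats, with log2 fold changes of -7.89 for Gif, -4.28 for Folr1, -4.30 for Fam25a and -4.13 for Tdh, 0 UMIs of Apoc4 in both HFHF-old rats, and edgeR adjusted p from 0.0907 to 0.272. Old 2 held 488 of the 518 Gif UMIs of the old rats, and without it the log2 fold change of Gif was -3.84. That of RT1-Bb was -4.36 without old 1, and that of Fam25a -1.76 without HFHF-old 1. For Folr1 it was -3.19 without old 2 and -8.49 without HFHF-old 1, where HFHF-old 2 had no Folr1 UMI. Prelid2 was the tenth (log2 fold change -3.76 ± 0.839 SE, edgeR adjusted p = 0.177), and it stood lower in acinar cells than in Ptprc-positive barcodes in every rat.

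The old and young groups were compared to ask what changes with age on the normal diet. Here 3 genes were called, all higher in old rats (0.0649% of 4620), and 105 genes (2.27%) had an unadjusted p under 0.05. Both old rats stood above both young rats in 4.42% of the tested genes and below them in 33.4% as measured in CPM, which is scaled by library size alone. DESeq2 called RT1-Bb alone. Leaving out 1 rat gave 8 calls without young 1, 1 (Gif) without young 2, 13 without old 1, 21 without old 2, 0 without HFHF-old 1, whose library enters the estimate of the spread, and 4 without HFHF-old 2.

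Folr1, the folate receptor alpha, was called (log2 fold change 6.73 ± 1.01 SE, edgeR adjusted p = 0.0321). Its UMIs were 0, 1, 28, 49, 12 and 0 in the 6 rats, in 0, 1, 14, 23, 10 and 0 cells. Per acinar UMI the old rats held 87.5 times the level of the young rats, with a counting interval of 15.2 to 3499 that rests on 1 UMI in young 2. Such an interval treats UMIs as independent counts and leaves out the spread between cells and rats. Without old 2 the ratio was 50, with an interval of 8.26 to 2043. The call was lost without young 2 (edgeR adjusted p = 0.125) and without HFHF-old 1 (0.0607). In Ptprc-positive barcodes Folr1 was at 0.989 to 3.98 CPM.

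Gif, gastric intrinsic factor, which carries vitamin B12, was called as well (edgeR adjusted p = 0.0334). It had 0, 0, 30, 488, 8 and 0 UMIs in 0, 0, 5, 87, 3 and 0 cells. Old 2 held most of it, and in old 1 a single cell held 70.0% of the 30 UMIs. Since both young rats were at 0, the old rats together stood at least 196-fold higher than the 3 UMIs that such a count still allows in the young group, and without old 2 at least 17.8-fold. The call was lost without HFHF-old 1 (edgeR adjusted p = 0.153). In Ptprc-positive barcodes Gif was at most 0.844 CPM.

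RT1-Bb was the third called gene (log2 fold change 5.34 ± 0.92 SE, edgeR adjusted p = 0.0486), at 0.847, 1.74, 92.1, 8.49, 0.592 and 0 CPM. Without old 1 the log2 fold change was 2.99 and the call was lost (edgeR adjusted p = 1), as it was without young 2 (0.125) and without HFHF-old 1 (0.153). In Ptprc-positive barcodes of the same rats it stood at 48.3, 35.6, 2130.5, 1227, 51.6 and 17.8 CPM, higher than in acinar cells in all rats and likewise highest in the old rats, so its acinar level moved with that of barcodes with a leukocyte transcript. The part of the latter in the former was not tested.

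Among genes not called but higher in both old rats, Apoc4, an apolipoprotein, had 0, 0, 13, 154, 0 and 0 UMIs, at least 63.2-fold higher in the old rats together than the floor of the young group, a bound of 7.73-fold without old 2 (edgeR adjusted p = 0.096). Ak5, an adenylate kinase, stood at 3.39, 2.09, 13.7, 10.8, 34.1 and 24.4 CPM (log2 fold change 2.57 ± 0.598 SE, edgeR adjusted p = 0.345). The immediate early receptor Nr4a1 stood at 6.78, 1.39, 35.3, 6.95, 23.1 and 9.75 CPM (log2 fold change 2.98 ± 0.759 SE, edgeR adjusted p = 0.537) and Clec3b, the plasminogen-binding tetranectin, at 3.39, 0.349, 11, 8.49, 9.33 and 0 CPM (log2 fold change 3.15 ± 0.865 SE, edgeR adjusted p = 0.826), both below Ptprc-positive barcodes in every rat. The unnamed loci AABR07065625.1, AABR07060872.1 and AABR07034739.1 had log2 fold changes of 3.97, 4.06 and 3.68, and also stood higher in Ptprc-positive barcodes.

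No gene was called lower in old rats. The one with the smallest p, B3galt2, a galactosyltransferase, stood at 28.8, 21.6, 4.41, 1.54, 5.63 and 9.75 CPM against 1.53 to 3.69 CPM in Ptprc-positive barcodes (log2 fold change -2.60 ± 0.615 SE, edgeR adjusted p = 0.359). Fam25a stood at 75.4, 114, 27.8, 6.95, 0.888 and 4.87 CPM (log2 fold change -2.13 ± 0.596 SE, edgeR adjusted p = 0.84). Chac1, which degrades glutathione and is induced in the unfolded protein response, stood at 20.3, 9.06, 0.881, 2.32, 10.8 and 0 CPM (log2 fold change -2.86 ± 0.81 SE, edgeR adjusted p = 0.85).

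Mki67, the proliferation marker Ki-67, had 11, 39, 2, 0, 27 and 0 UMIs (log2 fold change -4.03 ± 1.02 SE, edgeR adjusted p = 0.537), and Cenpf, a kinetochore protein, 11, 17, 0, 0, 8 and 0 UMIs. Calcb, a calcitonin gene-related peptide, had 27, 17, 0, 1, 0 and 0 UMIs. Bst2, an interferon-induced membrane protein, stood at 46.6, 34.5, 10.1, 10.8, 20.1 and 4.87 CPM (log2 fold change -1.57 ± 0.48 SE, edgeR adjusted p = 0.999), and the fatty acid-binding protein Fabp5 at 16.1, 15.7, 3.97, 2.32, 10.4 and 0 CPM (log2 fold change -1.93 ± 0.635 SE, edgeR adjusted p = 0.999). Pim3 (-1.76), a protein kinase, and Ube2s (-1.90), a ubiquitin-conjugating enzyme of mitosis, complete the 10, with log2 fold changes in parentheses. All 10 missed the threshold, and Mki67, Cenpf, Bst2, Fabp5 and Ube2s were higher in Ptprc-positive barcodes in every rat.

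Compared with young rats, HFHF-old rats, which differ from them in both age and diet and share the young group with the comparison above, had 1 gene called higher (0.0216% of 4620) and 2 called lower (0.0433%). The 2 lower genes were Fam25a and Gcg, and Gcg, a gene of the rule, is counted here and among the calls of other settings as part of the fit over all genes, but is not read as a result. The unadjusted p was under 0.05 for 243 genes (5.26%), and both HFHF-old rats stood above both young rats in 5.67% of genes and below them in 23.7%. Leaving out 1 rat gave 39 calls without young 1, 2 (Gcg and Fam25a) without young 2, 60 without old 1, 105 without old 2, 2 (Lcat and the hormone gene Ins1) without HFHF-old 1 and 39 without HFHF-old 2. Ak5 was higher in HFHF-old rats (log2 fold change 3.65 ± 0.601 SE, edgeR adjusted p = 0.0304), with 4, 6, 31, 14, 230 and 5 UMIs in 4, 6, 27, 11, 102 and 5 cells. Its call was lost without young 1 (edgeR adjusted p = 0.0796), without young 2 (0.747) and without HFHF-old 1 (0.604). Its level was lowest in the young rats, intermediate in the old rats and highest in the HFHF-old rats, with no overlap between the groups, and in Ptprc-positive barcodes it was 0.779 to 3.98 CPM. The share of all tested genes that set the 3 groups apart was not counted.

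Fam25a was lower in HFHF-old rats (log2 fold change -6.43 ± 0.936 SE, edgeR adjusted p = 0.0109), a call lost without HFHF-old 1, where the log2 fold change was -3.86. It had 89, 327, 63, 9, 6 and 1 UMIs, in 52, 129, 43, 7, 6 and 1 cells, and of cells thinned to 1000 UMIs 7.17, 9.44, 2.34, 0, 0.424 and 2.17% held one. Ptprc-positive barcodes thinned alike held one in 0.00957 to 1.07%, their median depth before thinning being 3648 to 10512 UMIs. Gcg was the other, at 684, 1813, 981, 367, 47.7 and 19.5 CPM in acinar cells, which is given as a description because the hormone limit of the rule caps it. That limit met 1, 76, 152, 35, 2 and 0 enzyme-rich barcodes of the 6 rats, some of which also held a Ptprc UMI. In Ptprc-positive barcodes Gcg stood at 4356, 29292, 8631, 10508, 572 and 7.91 CPM, so that it was higher there in all rats but HFHF-old 2, and lowest in the HFHF-old rats in both kinds of barcodes.

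The metallothioneins, which bind zinc and copper, fell short of the threshold. Mt1 stood at 169.5, 282, 14.5, 178, 8.73 and 0 CPM (log2 fold change -5.01 ± 1.05 SE, edgeR adjusted p = 0.136) and Mt2A at 29.7, 62, 6.17, 27.8, 2.07 and 0 CPM (log2 fold change -4.65 ± 0.906 SE, edgeR adjusted p = 0.105). Within the old group Mt1 was low in old 1 and near the young rats in old 2. DESeq2 called Mt2A in this comparison. In Ptprc-positive barcodes Mt1 ran from 59.6 to 142 CPM and was highest in HFHF-old 1.

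Other genes lower in both HFHF-old rats and not called were AABR07001599.1 (log2 fold change -4.43 ± 0.847 SE, edgeR adjusted p = 0.105), AC128848.1, Tmsb15b2, LOC108348172 and the endothelial gene Plvap, with log2 fold changes of -5.03, -3.86, -2.93 and -3.18, and Calcb, which had 0 UMIs in both HFHF-old rats (edgeR adjusted p = 0.136). Tmsb15b2, LOC108348172 and Plvap were higher in Ptprc-positive barcodes than in acinar cells in every rat. Higher in both and not called were Cyp7b1 (log2 fold change 2.20 ± 0.524 SE, edgeR adjusted p = 0.23), the hyaluronan-binding protein Tnfaip6 (3.74), the clock gene Per2 (2.84), Cep85l (2.86), the kinase Dclk1 (4.09), LOC103689965 (4.70), AABR07060133.1 (2.15), the alarmin Il33 (3.17) and Azgp1, a secreted glycoprotein (5.05), the values being log2 fold changes. Of these, Tnfaip6, Per2, Cep85l, Dclk1, LOC103689965, AABR07060133.1 and Il33 were higher in Ptprc-positive barcodes than in acinar cells in every rat. Azgp1 was not, at 0, 0.349, 0.441, 2.32, 7.7 and 14.6 CPM against at most 0.184 CPM.

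**Figure D4:**
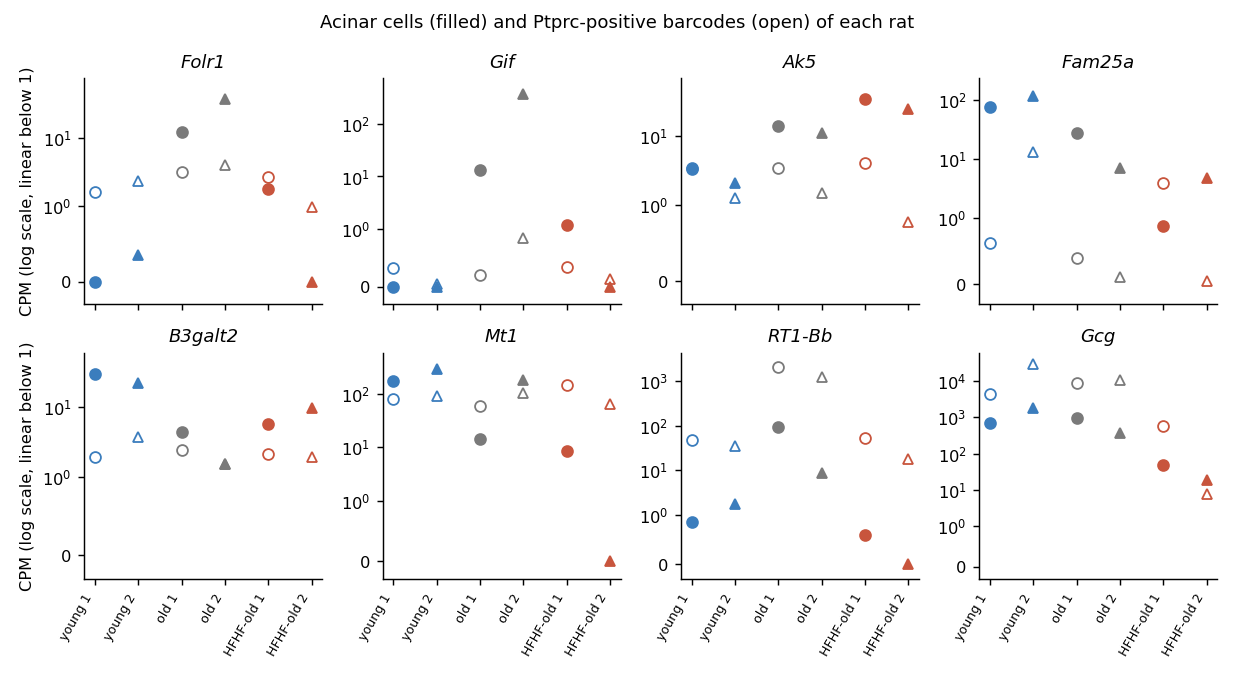
Level of 8 genes named in the comparisons, in CPM on an axis that is logarithmic above 1 and linear below, in acinar cells (filled) and Ptprc-positive barcodes (open) of each rat. Ak5 is highest in the HFHF-old rats (34.1 and 24.4 CPM), Gif stands at 13.2 and 377 CPM in the old rats and at most 1.18 CPM in the other 4, and for Gcg and RT1-Bb the open symbols lie above the filled ones in at least 5 of 6 rats.

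Gif marked a part of the acinar cells of old 2. There 87 of 227 cells held a Gif UMI. These cells were looked at after the values had been seen, so the values below are a description of 1 rat with no test. The cells with Gif had a median of 3860 UMIs and those without 3137. Apolipoprotein E (Apoe), which carries lipids, stood at 8108 CPM in the former and 362 CPM in the latter, and Apoc4 at 338 and 3.54 CPM, with 46 of the 49 cells that held an Apoc4 UMI also holding Gif. Clusterin (2253 against 532 CPM) and the lysosomal protease Ctsl (848 against 157 CPM) were higher as well.

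The cells with Gif also differed in enzymes. Amylase made up 7.75% of their UMIs against 23.4% in cells without Gif, and Ctrb1 1.79% against 5.96%. Pnlip was higher in them, at 8.16% against 3.26%, and Prss1 close, at 13.6% against 11.2%. Mt1 (15.7 against 264 CPM) and Cuzd1 (64.9 against 428 CPM) were lower, and Reg3a and Reg3b had 0 UMIs. Of the 140 cells without Gif, only 9 held a Reg3a UMI and 7 a Reg3b UMI. Reg1a was lower in summed UMIs (166 against 1326 CPM), though a UMI was found in 33 of the 87 cells with Gif (37.9%) and 35 of the 140 cells without (25%), so that few cells carried its level in the latter. The called gene Folr1 did not follow this division, at 47 against 33 CPM.

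**Figure D5:**
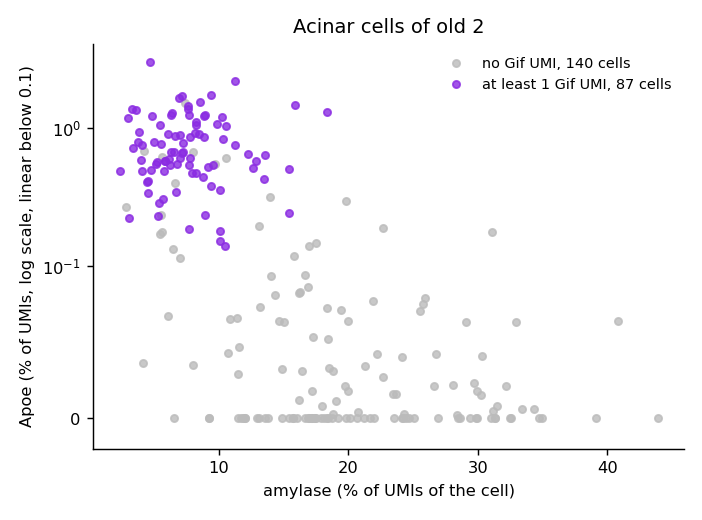
Apoe against amylase in the 227 acinar cells of old 2, both as percent of the UMIs of a cell (Apoe on a log axis that is linear below 0.1%), with the 87 cells that hold a Gif UMI in purple. The purple cells gather at low amylase and high Apoe, with 0.811% of their UMIs from Apoe against 0.0362% in the grey cells.

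Among 31 tested genes of protein folding in the endoplasmic reticulum and of the unfolded protein response, 0 passed, and the median log2 fold changes were 0.27, -0.02 and 0.07. The list summed highest in HFHF-old 1 (3017 CPM) and lowest in HFHF-old 2 (1667 CPM). In CPM, 17 of the 31 stood lower in both old rats than in both young rats, beside 33.4% of all genes. Atf3, a stress-induced factor, stood at 24.6, 3.49, 20.3, 19.3, 88.4 and 4.87 CPM and Ddit3 (CHOP), at 2.54, 4.53, 3.53, 17.8, 7.99 and 0 CPM, the first highest in HFHF-old 1 and the second in old 2. Among 36 tested genes of translocation and glycosylation the medians were -0.02, -0.14 and -0.21 and 25 stood lower in both old rats than in both young rats. Srp9, a subunit of the signal recognition particle, stood at 39, 40.8, 28.2, 37.1, 19.5 and 9.75 CPM, Spcs1 of the signal peptidase at 40.7, 35.2, 28.6, 36.3, 23.7 and 19.5 CPM, the cargo receptor subunit Mcfd2 at 55.9, 53.7, 33, 19.3, 45.5 and 34.1 CPM and the coat protein Sec24d at 4.24, 2.09, 8.37, 2.32, 14.2 and 0 CPM.

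Of 35 genes of the oxidative stress response 25 were tested and 0 passed. The medians were -0.39, 0.11 and -0.35, and Mt1 and Mt2A, given above, had the smallest p for HFHF-old against old (log2 fold change -4.18 ± 1.03 SE, edgeR adjusted p = 0.326 and log2 fold change -3.49 ± 0.908 SE, edgeR adjusted p = 0.374). The glutathione peroxidase Gpx1, which removes hydrogen peroxide, stood at 219.5, 215, 119, 57.1, 180.0 and 68.2 CPM, with both young rats highest, and Gpx3, its secreted relative, at 26.3, 6.97, 45.4, 13.9, 36.3 and 0 CPM.

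Antigen presentation and the interferon response had 19 tested genes of 30, of which RT1-Bb was called in old against young and 0 in the other comparisons. The medians were -0.97, 0.38 and -0.81, negative in both comparisons with HFHF-old rats. In Ptprc-positive barcodes the list summed to 16347, 14090, 27235, 29405, 12316 and 11940 CPM, highest in the old and lowest in the HFHF-old rats. In acinar cells it summed to 1213, 1035, 1582, 550, 755 and 263 CPM, with old 2 below both young rats and below HFHF-old 1. In HFHF-old 2 only 2 genes of the list reached 10 UMIs. The part of transcripts of Ptprc-positive barcodes in the acinar levels was not tested. The invariant chain Cd74 stood at 214, 189.6, 312, 74.9, 91.8 and 4.87 CPM and the class I gene RT1-A1 at 54.2, 16.4, 134, 32.4, 19.5 and 4.87 CPM, both at higher levels in Ptprc-positive barcodes (467 to 6151 CPM and 192 to 1238 CPM).

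Genes of the dissociation and immediate early response, which tissue digestion is known to induce, had medians of 0.21, 0.84 and 1.07 over 21 tested genes. In 19 of 21 the log2 fold change of old against young was above 0, and 0 were called. Both old rats stood above both young rats in CPM in 6 of the 21, beside 4.42% of all genes. For both HFHF-old rats above both young rats it was 1, beside 5.67%. The list summed to 1151, 497, 1094, 779, 2130 and 327 CPM in acinar cells, with young 1 above both old rats. In HFHF-old 2, where the sum was lowest, only 2 genes of the list reached 10 UMIs. The heat shock protein Hsph1 stood at 5.93, 4.88, 7.93, 10.8, 59.1 and 4.87 CPM and Hspb1 at 16.9, 5.23, 17.2, 30.9, 27.8 and 0 CPM, and the factor Klf4 at 12.7, 6.97, 14.1, 6.18, 57.3 and 0 CPM. Hsph1 and Klf4 were highest in HFHF-old 1, in acinar cells as in Ptprc-positive barcodes (637 and 527 CPM there).

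The remaining lists had 0 called genes. The medians of 14 tested inflammatory genes were 0.24, 0.26 and 0.44, with Il33 at 5.93, 0, 4.85, 0.772, 20.7 and 9.75 CPM and the chemokine Cxcl1 at 11.9, 6.97, 10.6, 2.32, 26.5 and 4.87 CPM. Those of 15 genes of lipid handling were 0.18, -0.28 and 0.07, with Fabp4, a fatty acid-binding protein of fat and endothelium, at 52.5, 30.7, 3.53, 19.3, 7.4 and 0 CPM and Angptl4, an inhibitor of lipoprotein lipase, at 6.78, 0, 1.32, 1.54, 15.7 and 4.87 CPM. In HFHF-old 2 only 1 gene of the inflammatory list and 1 of the lipid list reached 10 UMIs.

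For 11 genes of senescence and growth arrest the medians were 0.85, -0.32 and 0.30, with Igfbp5, a binding protein of insulin-like growth factors, at 36.4, 4.18, 22.9, 7.72, 158 and 4.87 CPM, Igfbp3 at 4.24, 8.02, 30, 6.18, 9.92 and 0 CPM and Gadd45g at 13.6, 16.4, 7.05, 2.32, 17.2 and 0 CPM. In HFHF-old 2 no gene of that list reached 10 UMIs, and its summed level was lowest there (58.5 CPM against 64.8 to 305 CPM). For 24 genes of amino acid supply and protein synthesis the medians were 0.09, 0.15 and 0.15, with the elongation factors Eef2 at 291, 304, 373, 329.6, 539 and 434 CPM and Eef1a1 at 138, 178, 207, 109.6, 248 and 253 CPM, the tRNA synthetases Gars at 28, 24, 13.7, 10, 28.9 and 29.2 CPM and Nars at 38.1, 44.3, 14.5, 16.2, 37.6 and 9.75 CPM, and Ctsl at 221, 119.9, 218, 395, 182 and 161 CPM. Eef2 and Eef1a1 were higher in both HFHF-old rats than in the other 4.

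Genes of ducts and of acinar-to-ductal metaplasia, a change of acinar cells toward a duct-like state in injury, had 9 tested members of 25, 0 called and medians of -0.84, 0.13 and -0.30. In HFHF-old 2 no gene of the list reached 10 UMIs, and its summed level was lowest there (132 CPM). Krt18, a keratin of simple epithelia, stood at 58.5, 46.7, 20.7, 126, 33.2 and 24.4 CPM and was highest in old 2, Tspan8 at 6.78, 2.79, 0.881, 0.772, 9.62 and 0 CPM, Cldn10, a tight junction protein, at 19.5, 17.8, 19.8, 30.9, 13 and 19.5 CPM, Cd24 at 69.5, 42.5, 22, 67.2, 38.5 and 14.6 CPM and Muc1 at 42.4, 36.2, 31.3, 34.7, 25.8 and 14.6 CPM. Of the remaining pancreatitis-associated genes, Anxa2 (17.8, 6.62, 9.69, 5.4, 48.1 and 4.87 CPM) and S100a6 (67, 23.4, 42.7, 26.2, 112 and 43.9 CPM) were highest in HFHF-old 1 and stood higher in Ptprc-positive barcodes.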

How the data were processed

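Single-cell suspensions of 6 rat pancreata were sequenced with a 3′ UMI chemistry, 1 library per rat. The authors deposited filtered matrices of UMI counts per gene and barcode, with no normalization, made with Cell Ranger (5.0.0 in the file headers) on Rnor_6.0 as named in the submitters' processing notes. Since only 3′ ends are counted, levels are not per length.

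Barcodes were kept and acinar cells chosen by the limits given in the report, and the members and gene lists were chosen with earlier results of these data known. UMIs were summed over the acinar cells of each rat. CPM is a gene's UMIs in each 1000000 acinar UMIs of that rat. The 3 groups were fitted together by edgeR's quasi-likelihood test (version 4.0.16, R 4.3.3) with TMM scaling, on 4620 genes kept by filterByExpr, and SE is the size of the log2 fold change over the square root of its F statistic. DESeq2 (1.42.0) was an alternative. Shares and genes per cell were compared by two-sided exact permutation tests (SciPy 1.17.1). Cells were thinned to 1000 UMIs at random with a fixed seed. Doublets were scored against simulated doublets and kept in the main analysis, 0 to 12 acinar cells of a rat being labelled. The fits were also run on simulated counts with large changes set in the more abundant genes, and the outcome is not reported here. Intervals cover counting error only.

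Genes were named by a fixed rule: the enzymes of the rule, the tested members of the enzyme, granule, transcription factor and Reg lists, per comparison and direction up to 10 genes with the smallest p among those called and then those whose rats did not overlap in CPM, and called members or otherwise the 2 of smallest p in each other list. Other genes given beside them were chosen after their values were seen. Some genes the rule names are not reported here. Gene names are those of the files, and promoters were matched by symbol to RefSeq (GRCr8), whose coordinates do not apply to the build of the files.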

Additional observations from a re-analysis of the deposited data

How the results depend on the processing

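Numbers of called genes are given first for HFHF-old against old, then for old against young, then for HFHF-old against young rats, where the main analysis called 0, 3 and 3, genes of the rule included. DESeq2 called 2, 1 and 4, scaling by library size alone 0, 0 and 0, leaving the 7 enzymes out of the sums 3, 4 and 3, testing every gene with at least 1 count 41, 18 and 69, an enzyme share of at least 10% 0, 1 and 4, a share of at least 40%, which leaves out HFHF-old 2 with 1 such cell, 23, 7 and 18, leaving out doublets 3, 5 and 3, and thinning each cell to 1000 UMIs, which left 978 genes to test, 0, 0 and 0. Chosen after seeing the data, edgeR's newer quasi-likelihood method called 0, 0 and 0 and leaving out cells with over 2000 genes 0, 3 and 3. Leaving out 1 rat at a time gave 2 to 36, 0 to 21 and 2 to 105 calls, a group with 1 rat left being assumed to vary like the others. With the replicate number as a block the calls were 33, 10 and 32. The numbers were not taken to pair the rats, since same-numbered rats are different animals and each comparison has 2 pairs, whose deviations from the group means correlated at 0.234 (young and old), 0.239 (young and HFHF-old) and 0.306 (old and HFHF-old) over 4620 genes. The labels do not say whether same-numbered rats were processed together, so the calls depend on a choice that the labels leave undecided.

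The difference in acinar share of barcodes turned positive for HFHF-old against old at an enzyme share of at least 40% (0.390 percentage points), and for HFHF-old against young there (0.930) and among barcodes without a Ptprc UMI (2.18). Without 1 rat it ran from -3.80 to 0.479, from -1.01 to 3.27 and from -2.45 to 1.38 percentage points in the 3 comparisons. The difference in genes per acinar cell turned positive in HFHF-old against old without thinning (203.5) and without the 7 enzymes at 500 UMIs (0.955), and ran from -35.5 to 14.0 without 1 rat. In HFHF-old against young it was 135 without thinning. The cause of these changes was not tested. For the 62 pairs of a gene and a comparison whose log2 fold change or adjusted p is given, 0 of 1112 values under the alternatives changed direction, 25 lost and 161 gained a call, and 926 kept their side of the thresholds. Those pairs were named mainly because they were called or because the rats of both groups did not overlap. The count of 0 changes of direction therefore follows largely from that choice and is no measure of stability. HFHF-old 2, with 46 cells and 205170 UMIs, sets the lowest level that can be seen in its group.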

Other observations

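The genes AC142181.2 and LOC683849, picked here after their values were seen, stood at 4.24, 6.27, 2.2, 0.772, 1459.7 and 0 CPM and 8.47, 11.5, 3.08, 10, 866 and 0 CPM in acinar cells in the order of rats used above. Both were far higher in HFHF-old 1 than in the other 5 rats, and there also high in Ptprc-positive barcodes, at 615 and 366 CPM. Apoe stood at 328, 152, 535, 3035, 573 and 0 CPM in acinar cells and at 2779, 1514, 4443, 3229, 7052 and 51.7 CPM in Ptprc-positive barcodes, and old 2 was the rat whose acinar level came closest, as a ratio, to that of its Ptprc-positive barcodes.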
